A study of Mus musculus with 10 samples.

Results

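The mitochondrial genome supplied 15 of the 28454 gene symbols in each of 10 RNA-seq libraries of CD31-positive cells from B16F10 melanomas. These were all symbols that start with mt-, namely 13 protein genes and 2 ribosomal RNA genes. The GENCODE vM21 annotation of GRCm38 holds 37 mitochondrial genes, and its 22 transfer RNA genes were not among the symbols. B16F10 is a mouse melanoma line, and the tumours had grown on adult mice. CD31 is an endothelial surface protein, and cells carrying the myeloid protein CD11b had been removed before magnetic selection. The 4 wild-type libraries came from the strain Cdh5-CreERt2, which carries an inducible Cre recombinase driven by the endothelial gene Cdh5. The 6 Shb-inactivated libraries came from Shbflox/flox/Cdh5-CreERt2 mice, so both groups carry the recombinase. Shb encodes a signalling adaptor with an SH2 domain. Tumours are the labelled tissue, while the source label also names lungs, and treatment and time points are not given in the labels used here.

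Mitochondrial DNA is a small circle that is transcribed from both strands into long precursor RNAs. These are cut into single messages, largely at the transfer RNAs that punctuate the genes. The proteins made from them are core subunits of the respiratory chain and of ATP synthase, and they assemble with subunits encoded in the nucleus. Cell nuclei also hold copies of mitochondrial DNA that were inserted during evolution, and these copies can be nearly the same in sequence as a working mitochondrial gene.

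Sequences of 3 members show where the values below can and cannot be read as one gene. They were taken from GENCODE vM21 transcripts on GRCm38 and are printed 5′ to 3′ on the strand of the gene. mt-Atp8 encodes a small subunit of ATP synthase and lies at chrM:7766-7969 on the plus strand, in 204 bases. It is shown because its last 43 bases, in capitals, are also the first bases of mt-Atp6, so reads from this stretch belong to both genes.
mt-Atp8: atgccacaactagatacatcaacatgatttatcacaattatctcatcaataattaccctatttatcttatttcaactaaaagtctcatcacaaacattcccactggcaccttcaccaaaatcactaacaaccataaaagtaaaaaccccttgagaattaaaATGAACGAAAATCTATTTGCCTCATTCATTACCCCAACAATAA

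The first 120 bases of mt-Nd3 (chrM:9459-9578, plus strand) are shown beside those of Gm28438 (chr1:24613000-24613119, minus strand), an annotated unprocessed pseudogene. mt-Nd3 encodes a subunit of complex I, the NADH dehydrogenase that opens the respiratory chain. Capitals mark the 1 base that differs in this stretch.
mt-Nd3: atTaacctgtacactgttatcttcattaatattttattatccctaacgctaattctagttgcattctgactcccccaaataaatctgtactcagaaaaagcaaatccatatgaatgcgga
Gm28438: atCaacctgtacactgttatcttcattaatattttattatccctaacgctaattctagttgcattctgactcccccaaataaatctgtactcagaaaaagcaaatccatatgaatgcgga

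As a contrast, the first 120 bases of mt-Nd6 (chrM:13951-14070, minus strand) stand beside its closest annotated copy, Gm11408 (chr4:80003795-80003914, minus strand). mt-Nd6 encodes another complex I subunit and is the only member of the 15 read from the minus strand. Here 4 bases differ, again in capitals.
mt-Nd6: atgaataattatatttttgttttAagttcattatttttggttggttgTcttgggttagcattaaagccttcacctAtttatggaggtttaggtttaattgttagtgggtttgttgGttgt
Gm11408: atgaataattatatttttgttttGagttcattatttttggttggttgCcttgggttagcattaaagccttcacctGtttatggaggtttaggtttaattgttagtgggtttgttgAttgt

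Values are FPKM, in which fragment numbers are divided by transcript length and by library size, so they are levels per length. How well this scaling holds for very short genes, such as mt-Atp8 with 204 bases, was not tested. The sum over all symbols ran from 477329 to 576687 FPKM per library, and sequencing depth is unknown. In the check of the targeted gene, Shb was 5.44, 3.27, 2.78 and 3.24 FPKM across the wild-type replicates 1 to 4 and 0.37 to 1.44 in the Shb-inactivated libraries, without overlap. All 10 endothelial markers were at least 1 FPKM in every library, and their sum was 2747 to 3795 FPKM in the wild-type and 3349 to 4677 in the Shb-inactivated group. Myeloid markers summed to 44.4 to 6066 FPKM in the wild-type and 43.2 to 4377 in the Shb-inactivated group. They were highest in replicate 3 of the wild-type and replicates 3 and 4 of the Shb-inactivated group. Melanoma markers (7 genes) summed to 1106 FPKM in wild-type replicate 1 and to 12.4 to 342 in the other 9 libraries. Muscle markers, which would mark another mitochondria-rich tissue, summed to under 1 FPKM everywhere, with 0.22 to 0.90 in all. Small nucleolar RNAs (41 genes) had a mean log2(FPKM + 1) of 1.74 for wild-type replicate 1 and of 1.41 and 1.69 for Shb-inactivated replicates 1 and 2, against 2.49 to 4.20 in the other 7 libraries.

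Wild-type replicate 1 stood apart for these genes before any comparison of genotypes. It had the highest level of 13 of the 15 members, where it was the highest library for 22.1% of all 12805 genes tested (those with at least 1 FPKM in at least 4 libraries). Among the members above 0 in every library, the highest ratio of its level to the median of the other 9 libraries was 12.8, for mt-Co2. That median was only 1.77 FPKM, and the level of mt-Co2 is uncertain because of a nuclear copy described below. Among those members without a near-identical annotated copy, the ratios ran from 2.64 for mt-Nd1 to 5.79 for mt-Rnr1. mt-Co3 and mt-Nd3 were not highest in this library. By Dixon's criterion, which sets the gap to the nearest library against the group's range, it stood apart from the other wild-type libraries for 9 of the 13 members above 0 throughout and for 6.2% of all genes tested. In the Shb-inactivated group the highest library stood apart for 3 of the 13 members and for 5.03% of all genes. This library also had the highest melanoma marker sum, and the part of melanoma cells, or of RNA quality, in its mitochondrial values was not tested. In bulk RNA, a change in the number of cells of a type and a change in RNA per cell cannot be told apart. Group comparisons are therefore given with and without it.

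**Figure D1:**
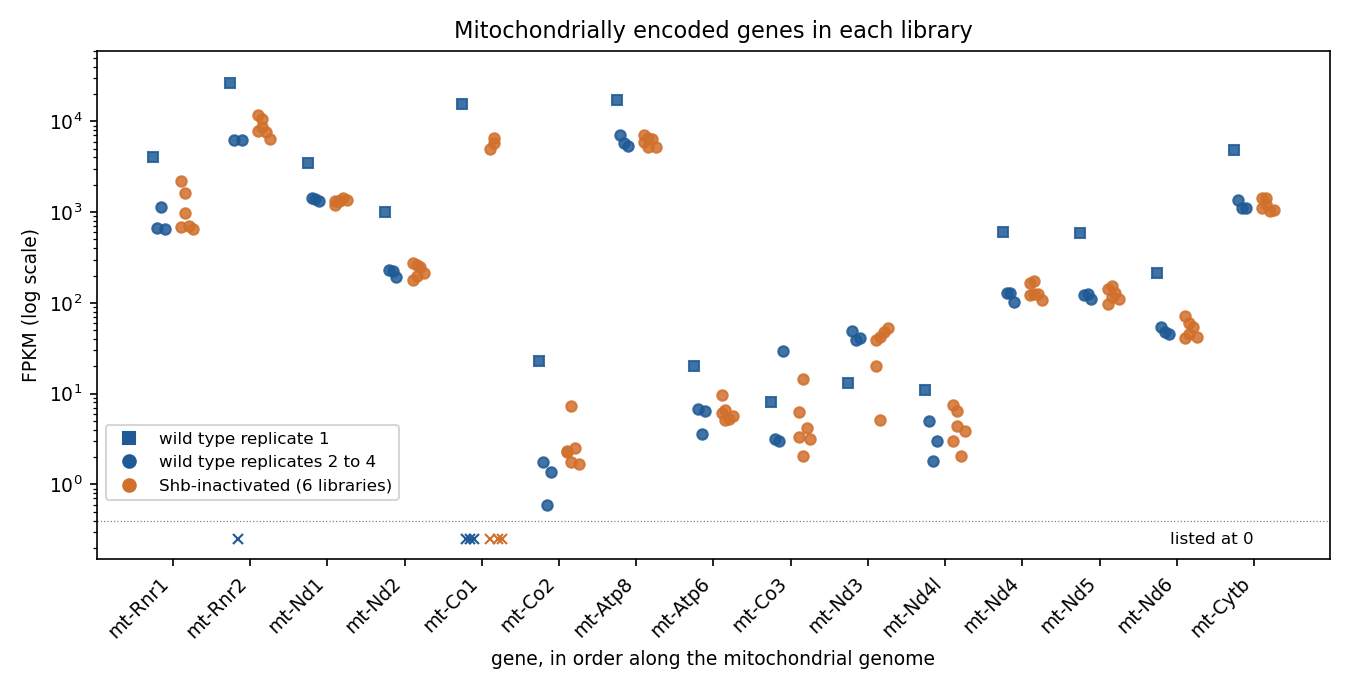
FPKM of each mt- gene (log axis) in the 4 wild-type and 6 Shb-inactivated libraries, with genes in the order of the mitochondrial genome and 1 symbol per library. Crosses in the lowest strip are values listed at 0: mt-Rnr2 in 1 library and mt-Co1 in 6. Wild-type replicate 1 (squares) lies above all other libraries for 13 of the 15 genes.

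The ribosomal RNA genes encode the RNA of the small (mt-Rnr1) and large (mt-Rnr2) subunit of the mitochondrial ribosome. The library kit removes ribosomal RNA, so these values are what remained after that step. mt-Rnr1 (chrM:70-1024) was 4094, 668, 1137 and 660.1 FPKM across wild-type replicates 1 to 4. In the Shb-inactivated group it was 646 at the lowest, 846 at the median and 2231 at the highest. The 3 highest libraries were replicate 1 of the wild-type and replicates 1 and 2 of the Shb-inactivated group, so the groups overlapped. mt-Rnr2 (chrM:1094-2675) was 26614, 6174 and 6304 FPKM for wild-type replicates 1, 2 and 4, and it was listed at exactly 0 in wild-type replicate 3. Its Shb-inactivated values were 6401, 8208 and 11620 at the lowest, median and highest. A gene with a lowest other value of 6174 FPKM and a single listed 0 is likely a failed estimate, and no mean is given for it. In the 9 libraries with a value, mt-Rnr2 was 5.21 to 11.5 times as high as mt-Rnr1.

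Among complex I genes, mt-Nd1 (chrM:2751-3707) had the highest level in every library. It was 3516, 1435, 1407 and 1330.3 FPKM across wild-type replicates 1 to 4, and 1194, 1327 and 1422 at the lowest, median and highest of the Shb-inactivated group. Without wild-type replicate 1, it was the steadiest of the 13 members above 0 throughout: the highest of the 9 other libraries was 1.20 times the lowest. mt-Nd2 (chrM:3914-4951) was 1013, 228, 224 and 191 FPKM in the wild-type replicates, against 177, 232 and 277 in the Shb-inactivated group.

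mt-Nd4 (chrM:10167-11544) was 606, 130.02, 128 and 102 FPKM across wild-type replicates 1 to 4 and 108, 126 and 175 at the lowest, median and highest of the Shb-inactivated group. mt-Nd5 (chrM:11742-13565) was 585, 121, 124 and 111 FPKM, with 97.1, 121 and 152 in the Shb-inactivated group. These neighbours in level were not separated by their spread: mt-Nd4 was above mt-Nd5 in 7 of 10 libraries. mt-Nd6 (chrM:13552-14070), which overlaps mt-Nd5 by 14 bases on the opposite strand, was 211, 54.4, 48.3 and 45.8 FPKM in the wild-type replicates. Its Shb-inactivated values were 40.9, 49.6 and 71.8. mt-Nd6 was lower than mt-Nd5 in all 10 libraries. Whether the authors' counting used strand is not given in the sources used here, so the short shared stretch cannot be assigned.

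Complex III has 1 mitochondrial subunit, cytochrome b. Its gene mt-Cytb (chrM:14145-15288) was 4842, 1365, 1111 and 1107 FPKM across wild-type replicates 1 to 4. In the Shb-inactivated group it was 1039, 1172 and 1447 at the lowest, median and highest. Apart from wild-type replicate 1, all values of both groups lay between 1039 and 1447 FPKM. Shb-inactivated replicates 1 and 2 were the highest of these, at 1425 and 1447 FPKM. mt-Nd1 was above mt-Cytb in 7 of 10 libraries.

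Complex IV, cytochrome c oxidase, takes its catalytic core from mt-Co1, mt-Co2 and mt-Co3. mt-Co1 (chrM:5328-6872) was 15671 FPKM in wild-type replicate 1 and 4934, 5724 and 6631 in Shb-inactivated replicates 1, 2 and 6. The other 6 libraries, wild-type replicates 2 to 4 and Shb-inactivated replicates 3 to 5, listed it at exactly 0. Both genotypes thus held such zeros, and mt-Co1 is a gene that cells with mitochondria use throughout. The same kind of 0, in a gene with a median of at least 10 FPKM over its other libraries, was found for 173 symbols. The collagen gene Col4a1, for example, was listed at 0 in 8 libraries and at 1727 and 3049 FPKM in the other 2. mt-Co1 is thus given by library only.

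mt-Co2 (chrM:7013-7696) was 22.6, 1.77, 0.60 and 1.36 FPKM across wild-type replicates 1 to 4 and 1.67, 2.30 and 7.40 at the lowest, median and highest of the Shb-inactivated group. mt-Co3 (chrM:8607-9390) was 8.05, 3.2, 2.99 and 29.3 FPKM, with 2.05, 3.76 and 14.6 in the Shb-inactivated group. Its highest library was wild-type replicate 4. Both genes thus lay far below mt-Co1 in each library where mt-Co1 had a value.

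ATP synthase takes mt-Atp6, part of its proton channel, and mt-Atp8 from the mitochondrial genome. mt-Atp8, whose overlap with mt-Atp6 is printed above, was 17151, 7035, 5776 and 5315 FPKM across wild-type replicates 1 to 4. In the Shb-inactivated group it was 5208, 6139 and 7141 at the lowest, median and highest. It was the highest protein gene among those above 0 everywhere in all 10 libraries, and it is also the shortest. mt-Atp6 (chrM:7927-8607) was 20.3, 6.81, 3.6 and 6.38 FPKM in the wild-type and 5.16, 5.86 and 9.55 in the Shb-inactivated group. The 2 genes are known to be carried on 1 messenger RNA, yet their medians over the 10 libraries were 6139 and 6.22 FPKM. The pair mt-Nd4l and mt-Nd4, which overlap by 7 bases and also share a message, had medians of 4.12 and 127 FPKM.

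The low members were those with a near-identical annotated copy in the nuclear genome. Transcripts of the 15 members were aligned to all other annotated transcripts. For 5 of them an unprocessed pseudogene on chromosome 1 was at least 99% identical over at least 90% of the gene. mt-Co2 and Gm28661 were 100% identical over 99.6% of the gene. mt-Atp6 and Gm10925 were also 100% identical, over 99.6%. So were mt-Co3 and Gm28437 over 99.9%, and mt-Nd4l and Gm10222 over 99%. mt-Nd3 and Gm28438 were 99.7% identical over 99.1%, with the 1 mismatch printed above. These 5 members were below all other members with a value in 9 of 10 libraries, and without mt-Nd3 in all 10. How the authors' counting treated reads that match both a gene and its copy is not given in the sources used here, so levels of these 5 genes are uncertain.

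Annotated copies of the other members were shorter or less alike. Gm28439 was 100% identical to mt-Nd4 but covered 63.6% of it, and Gm29216 was 99.8% identical to mt-Co1 over 31.3%. Gm11408 covered the whole of mt-Nd6 at 93.6% identity, as in the pair printed above. mt-Rnr1, mt-Nd1 and mt-Atp8 had no annotated copy at 85% identity over 100 bases or more. Only annotated transcripts were searched. On the mitochondrial genome mt-Atp8 stands between mt-Co2 and mt-Atp6, whose copies are Gm28661 (chr1:24614885-24615565) and Gm10925 (chr1:24613974-24614651). Whether the stretch between these copies holds an unannotated copy of mt-Atp8 was not examined. The link between copy and low level therefore covers annotated copies only. The copies themselves were also at low levels: Gm28437 was 1.73 to 22.7 FPKM, and the sum of mt-Co3 and Gm28437 was 4.92 to 31.2 FPKM. The copy's part of that sum ran from 6.1% in wild-type replicate 4 to 87.7% in wild-type replicate 2. Adding the listed copies back therefore left these members far below mt-Atp8, mt-Nd1 and mt-Cytb.

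**Figure D2:**
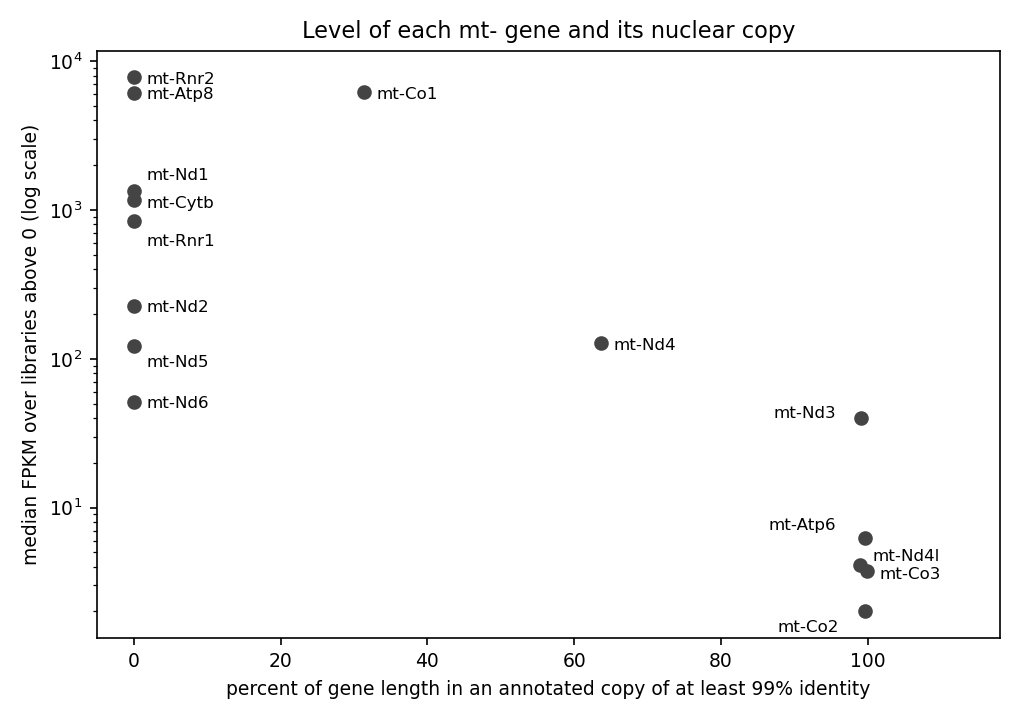
Median FPKM of each mt- gene over the libraries above 0 (log axis) against the percent of its length held in 1 annotated copy of at least 99% identity, with 1 point per gene. The 5 genes covered over at least 90% of their length have medians of 2.01 to 40.1 FPKM, and the other 10 lie between 51.2 and 7788 FPKM.

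mt-Nd3 had a different order of libraries from most members. It was 13.2, 49.5, 39.2 and 40.9 FPKM across wild-type replicates 1 to 4 and 5.12, 40.7 and 52.7 at the lowest, median and highest of the Shb-inactivated group. Its 3 lowest values were in replicate 1 of the wild-type and replicates 1 and 2 of the Shb-inactivated group, at 13.2, 20.4 and 5.12 FPKM, against 38.8 to 52.7 in the other 7. mt-Nd4l (chrM:9877-10173), a further complex I subunit, was 10.97, 5.04, 1.82 and 2.98 FPKM in the wild-type and 2.07, 4.12 and 7.56 in the Shb-inactivated group. The 3 libraries low in mt-Nd3 were the highest for mt-Nd4l.

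Those 3 libraries are the ones lowest in small nucleolar RNAs, and they did not overlap with the other 7 for 8 of the 13 members above 0 throughout. They were higher for 7 members and lower for 1, while 10.8% of all genes tested were higher in all 3 and 8.66% lower. mt-Rnr1 was 1625 to 4094 FPKM in them and 646 to 1137 in the other 7. mt-Nd2 was 264 to 1013 against 177 to 251 FPKM. The other members higher in all 3 were mt-Nd4, mt-Nd5, mt-Nd6, mt-Cytb and mt-Nd4l, while mt-Nd3 was lower. mt-Nd1 and mt-Atp8 overlapped: mt-Nd1 was highest in wild-type replicate 1 and lowest in Shb-inactivated replicate 1, at 1194 FPKM, and mt-Atp8 was lowest in Shb-inactivated replicate 2, at 5208 FPKM. This split was chosen after the values of these libraries were seen, crosses the genotypes (1 wild-type and 2 Shb-inactivated libraries) and was not tested.

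Ratios within a library, which cancel its overall scale, showed which members kept their proportions. mt-Nd2 was 1.73 to 1.97 times mt-Nd5 in the 10 libraries, although mt-Nd2 itself ranged from 177 to 1013 FPKM. mt-Nd4 was 0.92 to 1.24 times and mt-Nd6 0.361 to 0.507 times mt-Nd5. Wild-type replicate 1 was inside the range of the other libraries for mt-Nd2 and mt-Nd4, and lowest, at 0.361, for mt-Nd6. Levels of these genes thus differed between libraries more than their proportions did.

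Other ratios were not kept. Of 11 ratios, 6 did not overlap between the 3 libraries low in small nucleolar RNAs and the rest. These ratios share members, and the same count over ratios of other genes was not made. Of all single genes tested, 10.8% were higher and 8.66% lower in all 3 of these libraries. The 6 of 11 are thus not read as particular to mt- genes. mt-Nd1 over mt-Nd5 was 6.01 to 8.67 in the 3 and 11.2 to 13.7 in the other 7. For mt-Atp8 over mt-Nd5 the ranges were 29.3 to 41.5 and 46.6 to 73.5. mt-Nd3 over mt-Nd5 was 0.0226 to 0.144 against 0.316 to 0.476. In the opposite direction, mt-Rnr1 over mt-Nd1 was 1.16 to 1.87 in the 3 and 0.465 to 0.808 in the rest. mt-Cytb was above mt-Nd1 in these 3 libraries alone, at 1.10 to 1.38 times. mt-Rnr2 over mt-Rnr1 was 5.21 to 6.58 in them and 8.77 to 11.5 in the 6 others with a value. The order of the 8 members above 0 throughout and without a near-identical annotated copy over most of their length accordingly took 5 forms. The commonest, from mt-Atp8 through mt-Nd1, mt-Cytb, mt-Rnr1, mt-Nd2, mt-Nd4 and mt-Nd5 to mt-Nd6, was found in 3 libraries. The part of RNA quality or fragment length in these ratios was not tested.

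**Figure D3:**
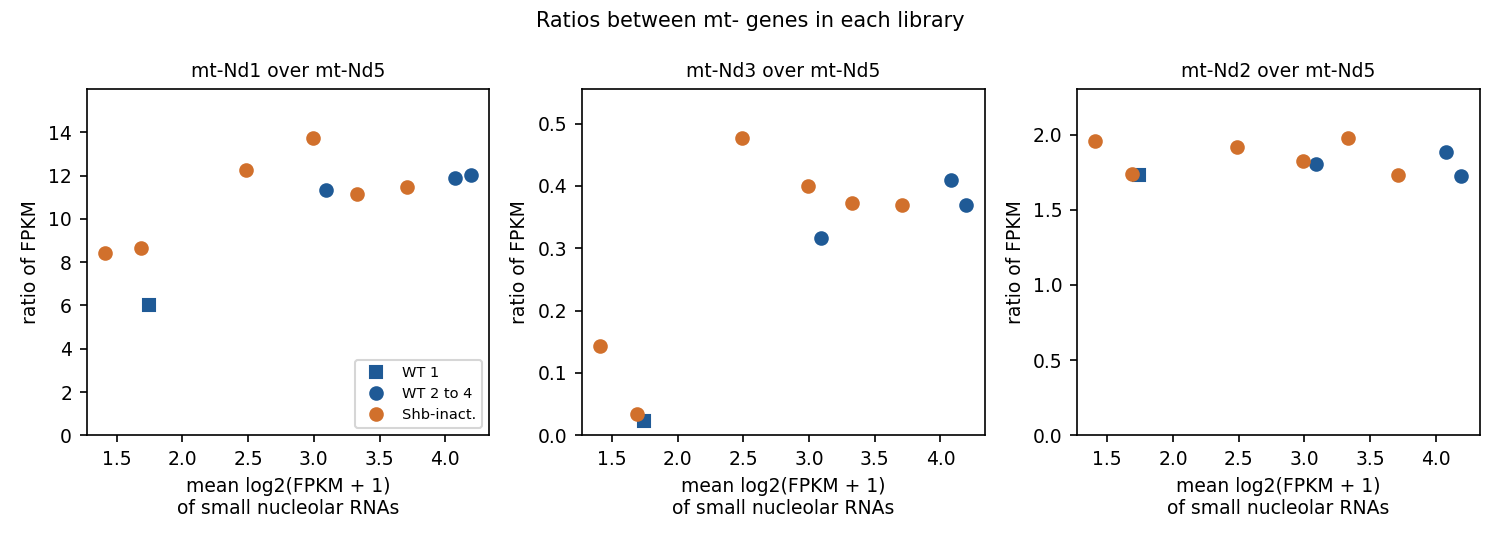
Ratio of FPKM of mt-Nd1, mt-Nd3 and mt-Nd2 to mt-Nd5 in each of the 10 libraries against the mean log2(FPKM + 1) of small nucleolar RNAs in that library. The 3 libraries at the left have mt-Nd1 ratios of 6.01 to 8.67 against 11.2 to 13.7 in the others, while the mt-Nd2 ratio stays between 1.73 and 1.97 in all 10.

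As a share of all FPKM, the mt- genes as listed made up 14.5%, 3.07%, 1.73% and 2.80% in wild-type replicates 1 to 4. In the Shb-inactivated group the share was 2.89% at the lowest, 4.11% at the median and 5.86% at the highest. These shares follow the listed zeros: the lowest, in wild-type replicate 3, lacks both mt-Rnr2 and mt-Co1. The 12 protein genes above 0 everywhere are free of such zeros. They made up 5.46%, 1.86%, 1.54% and 1.52% of FPKM across wild-type replicates 1 to 4, and 1.55%, 1.74% and 1.93% at the lowest, median and highest of the Shb-inactivated group. Their mean share was 2.59% ± 1.92 (SD, n = 4) in the wild-type and 1.74% ± 0.14 (SD, n = 6) in the Shb-inactivated libraries. Without wild-type replicate 1 the wild-type mean was 1.64% ± 0.19 (SD, n = 3), and the direction between the groups turned. Either way the groups overlapped. mt-Atp8 alone was 0.975% to 1.28% of FPKM in the 9 other libraries and 3.35% in wild-type replicate 1. This short gene thus made up most of the 12-gene share in every library. Without mt-Atp8 the share was 0.527% to 0.695% in those 9 libraries and 2.12% in wild-type replicate 1. Its mean was then 0.950% in the wild-type and 0.594% in the Shb-inactivated group, and 0.562% in the wild-type without replicate 1.

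**Figure D4:**
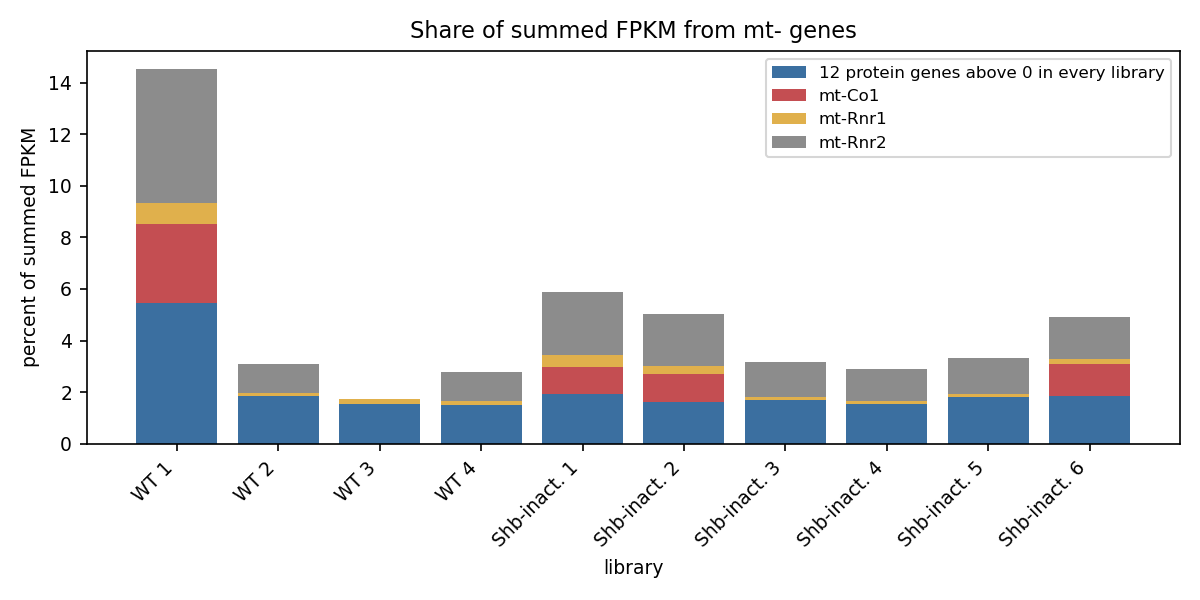
Percent of summed FPKM in each library from the 12 protein genes above 0 in every library, mt-Co1, mt-Rnr1 and mt-Rnr2 (stacked bars). Wild-type replicate 1 reaches 14.5%, the other bars 1.73% to 5.86%, and the height of the 12-gene part is 1.52% to 1.93% in those 9 libraries.

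The comparison of genotypes asked whether loss of Shb in endothelium went with a different level of these genes. No member passed the test: 0 of 15 had an adjusted p under 0.05 in limma, against 0 of all 12805 genes tested (0%). Shb, the targeted gene, did not pass either: it ranked 1 by limma p (9.74e-05), with an adjusted p of 0.989. A count of 0 is therefore not read as absence of a change. At an unadjusted p under 0.05 the members gave 0 of 15 and all genes 442 (3.45%). With library quality weights in limma, 0 genes passed after adjustment, 618 had an unadjusted p under 0.05, and 0 of these were members. mt-Co1 and mt-Rnr2 entered these fits with their listed zeros as values, so their results are not informative. The counts of 0 can thus be read for the 13 members above 0 in every library. All 15 members passed the filter on low values, and the groups overlapped for all 15. For mt-Co1 that overlap rested on its listed zeros. Over all genes tested, 0.539% had every Shb-inactivated library above every wild-type library, and 0.18% the reverse.

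All 13 members above 0 throughout had a log2 fold change (wild-type subtracted from Shb-inactivated, from log2(FPKM + 1) values) below 0, where 48.8% of all genes did. Without wild-type replicate 1, 3 of the 13 were below 0. mt-Nd1 had a log2 fold change of -0.41 (SE 0.26, 95% interval -0.98 to 0.17, limma adjusted p = 0.989). Without that library it was -0.07 (95% interval -0.31 to 0.16). mt-Cytb was at -0.49 (SE 0.38, 95% interval -1.33 to 0.36), and at 0.02 (-0.33 to 0.37) without it. mt-Nd5 had -0.52 (95% interval -1.45 to 0.40) and then 0.05 (-0.27 to 0.38). For mt-Atp8 the values were -0.37 (-1.09 to 0.35) and 0.01 (-0.38 to 0.39), and for mt-Rnr1 -0.23 (-1.46 to 0.99) and 0.36 (-0.60 to 1.31). With all 10 libraries the widest interval was that of mt-Co2, from -1.60 to 1.37, and without wild-type replicate 1 that of mt-Co3, from -2.08 to 1.08. Every interval held 0 in both fits.

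Over the 12 protein genes above 0 everywhere, the median log2 fold change was -0.41, beside 0.01 over all genes tested. Leaving out wild-type replicate 1 gave 0.05, library quality weights -0.10, and leaving out the 3 libraries low in small nucleolar RNAs -0.01. Among the 7 without a near-identical annotated copy it was -0.46, and 0.05 without wild-type replicate 1. For mt-Rnr2, with the listed 0 of wild-type replicate 3 treated as missing and that library dropped for this gene, the log2 fold change was -0.23 (95% interval -1.27 to 0.81). Without wild-type replicate 1 as well, it turned to 0.47 (-0.11 to 1.04), and the 2 wild-type values left, 6174 and 6304 FPKM, lay below all 6 Shb-inactivated values. With wild-type replicate 1 the groups overlapped. The share of all genes that separate in such a comparison of 2 with 6 libraries was not computed, so this order is not read as a difference. For mt-Co1, treating the listed zeros as missing leaves 1 wild-type library, and no fold change is given.

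**Figure D5:**
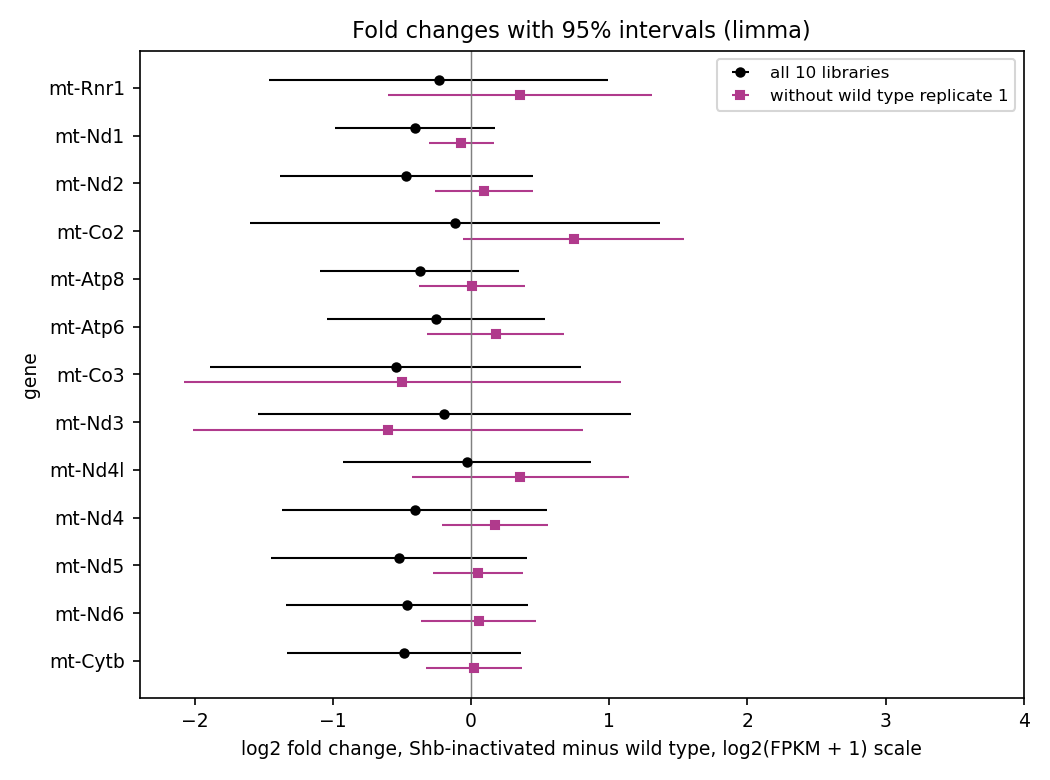
Log2 fold change (wild-type subtracted from Shb-inactivated, from log2(FPKM + 1) values) with its 95% limma interval for the 13 mt- genes above 0 in every library, from all 10 libraries (circles) and without wild-type replicate 1 (squares). All 13 circles lie below 0 and 3 of 13 squares do, and each bar crosses 0.

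Most lists of nuclear genes of the same pathway were at their lowest, not their highest, in wild-type replicate 1. Across 14 lists of nuclear genes for mitochondrial DNA, RNA, translation and respiration, 0 genes passed the test in either direction, and wild-type replicate 1 was the lowest library for the summed FPKM of 10 lists. It was the highest for 1 list, mitochondrial DNA replication, at 106 FPKM against 84.3 to 95.3 in the other 9, and Polg, the mitochondrial DNA polymerase, was also highest there, at 41.4 FPKM. How often wild-type replicate 1 was the lowest library over all genes was not computed, and some genes are in more than 1 list. The count of 10 of 14 lists is therefore not read as particular to these genes. The 71 nuclear subunits of complexes I, III, IV and V summed to 6558 FPKM in that library and to 8106 to 10520 in the other 9. The 12 mitochondrial protein genes amounted to 427% of that nuclear sum in wild-type replicate 1 and to 78.7% to 113% in the others. Thus the mitochondrial and the nuclear part of the respiratory chain lay at opposite ends in 1 library. It has the high melanoma marker sum given above and is also low in small nucleolar RNAs. Shb-inactivated replicates 1 and 2, likewise low in these RNAs, had the next lowest nuclear sums, at 8106 and 8487 FPKM. Their melanoma marker sums were 18.7 and 144 FPKM. Shb-inactivated replicate 6 followed closely, with a nuclear sum of 8554 FPKM. The cause was not tested.

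Medians of the nuclear lists also moved with that library: 9 of 14 had a median log2 fold change above 0 with it and 1 of 14 without it. Over all genes tested the median was 0.0055 with it and -0.0059 without it. The same count over other lists of genes was not made, so these counts are not read as particular to the pathway. The 37 nuclear complex I subunits had a median of -0.01 (-0.13 without wild-type replicate 1), 19 of them being below 0 with all libraries. Ndufa4, listed there by its symbol, was 281 ± 66.3 FPKM (SD, n = 4) in the wild-type and 276 ± 61.6 (SD, n = 6) in the Shb-inactivated group. The 8 complex III subunits had a median of -0.02 (-0.18 without it), and Uqcrb, a small structural subunit, ranged from 123 FPKM in wild-type replicate 1 to 393. The 12 complex IV subunits had a median of 0.06, 10 of them above 0, which turned to -0.13 without wild-type replicate 1. The 15 of ATP synthase had 0.02, which turned to -0.11. Atp5b, the catalytic beta subunit, was 558 ± 116 FPKM (SD, n = 4) and 569 ± 36.3 (SD, n = 6). Complex II, which has no mitochondrially encoded subunit, had a median of 0.01 over 4 genes (-0.10 without it). Uqcrc1 was not analysed here.

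Lists of genes that make and keep mitochondrial RNA had medians between -0.07 and 0.11 with all libraries, and values without wild-type replicate 1 follow in parentheses. The 9 tested genes for transcription and the nucleoid had a median of 0.02 (-0.0093), and Tfam, which packs and transcribes mitochondrial DNA, was 22.3 ± 7.11 FPKM (SD, n = 4) and 23.9 ± 4.48 (SD, n = 6). The 10 replication genes had a median of -0.03 (-0.02), with Polg at 32.3 ± 6.24 (SD, n = 4) and 31.7 ± 1.79 FPKM (SD, n = 6). RNA processing (14 genes) had 0.05 (-0.06), and transfer RNA charging and modification (26 genes) had -0.07 (-0.03). RNA stability and decay (7 genes) had 0.11 (-0.0045). Slirp, which binds and stabilises mitochondrial messages, was 30.2 FPKM in wild-type replicate 1, its lowest library, and reached 161. The 77 mitoribosome proteins had a median of -0.01 (-0.13), with 41 below 0, and the 10 translation factors 0.03 (-0.0080). Regulators of mitochondrial biogenesis (8 tested) were at 0.04 (0.04), and genes used as a sign of mitochondrial mass (12) at 0.04 (-0.07).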

How the data were processed

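Total RNA of 4 wild-type and 6 Shb-inactivated libraries had been sequenced with a stranded kit after ribosomal RNA removal, per the labels' protocols. The authors deposited FPKM per gene symbol, with a decimal comma. TopHat2 2.1.1 and Cufflinks 2.2.1 are named in the submitters' processing notes, with the build GRCm38; annotation and strand setting: not given in the sources used here. Depth per sample is unknown. Genes that reached 1 FPKM in 4 or more of the 10 libraries (12805) were tested with limma 3.58.1 in R 4.3.3 on log2(FPKM + 1), two-sided, with a trend and Benjamini-Hochberg adjustment at 0.05, and the step was tested on simulated data. An exact 0 in a gene with a median of at least 10 FPKM over its other libraries was taken as a likely failed estimate. Copies were sought among annotated transcripts, in the same orientation, with blastn 2.17.0 (at least 85% identity over 100 bases). All mt- symbols are named, with Shb and genes of the nuclear lists with the highest levels. The members and lists were chosen with earlier results of these data known. The sample titles give 4 and 6 libraries and do not say whether each came from 1 mouse, so p-values reflect how far these libraries vary. Alternatives changed the pseudocount, filter, scaling, weights, block and libraries used. Plots were drawn with matplotlib 3.10.9.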

Additional observations from a re-analysis of the deposited data

Results flagged for a closer look

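A group and a value gave 30 pairs (13 genes and 2 shares, in each group). Of these, 14 had a highest library that stood apart from its group by Dixon's criterion. The pairs are not independent: most members were highest in the same library, and the 2 shares are sums of members. Over all genes tested, wild-type replicate 1 stood apart as the highest wild-type library for 6.2%. The highest Shb-inactivated library stood apart for 5.03%. Wild-type replicate 1 accounted for 11 of the 14. In that library mt-Rnr1 was 4094 FPKM, mt-Nd1 3516, mt-Nd2 1013, mt-Co2 22.65 and mt-Atp8 17151. mt-Nd4 was 606, mt-Nd5 585, mt-Nd6 211 and mt-Cytb 4842 FPKM. The share of all mt- genes was 14.5% and that of the 12 protein genes above 0 everywhere 5.46%. In the Shb-inactivated group, a different library stood apart for each of 3 members that have a near-identical nuclear copy. mt-Co2 was 7.4 FPKM in replicate 2, mt-Atp6 9.55 in replicate 1 and mt-Co3 14.6 in replicate 6.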

How the results depend on the processing

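The counts of genes and of members past the limma threshold were 0 under every alternative run, single libraries left out included. Over the runs that each left out 1 library, the median log2 fold change of the 12 mitochondrial protein genes ran from -0.56 to 0.05, and its only value above 0 was the one without wild-type replicate 1. The difference in their share ran from -1.21 to 0.10 percentage points, and that of all mt- genes from -2.59 to 1.66. Medians of nuclear lists moved for mitochondrial RNA processing to -0.0792 with quality weights and -0.0716 without the 3 libraries low in small nucleolar RNAs (an alternative added after the data were seen), and for mitochondrial mass to -0.11 with quality weights. Left-out libraries gave -0.0567 to 0.0867 for RNA processing and -0.18 to 0.053 for complex III. In 33 cases a single member turned to above 0. With quality weights these were mt-Rnr1 0.28, mt-Co2 0.28, mt-Nd4 0.0341 and mt-Nd4l 0.15. Without the libraries low in small nucleolar RNAs they were mt-Co2 0.48, mt-Atp8 0.0689, mt-Atp6 0.026, mt-Nd3 0.069, mt-Nd4 0.0088 and mt-Nd4l 0.0549. Other settings turned mt-Rnr1 (0.0353 without 3 myeloid-rich libraries), mt-Co2 (0.0652 with pseudocount 0.1) and mt-Nd4l (0.0204 with TPM scaling, 0.0268 with quantile normalization). Leaving out 1 library gave -0.52 to 0.36 for mt-Rnr1, -0.71 to 0.0902 for mt-Nd2, -0.55 to 0.74 for mt-Co2, -0.56 to 0.007 for mt-Atp8 and -0.56 to 0.18 for mt-Atp6. It gave -0.89 to 0.0824 for mt-Co3, -0.60 to 0.25 for mt-Nd3, -0.68 to 0.18 for mt-Nd4 and -0.75 to 0.051 for mt-Nd5. For mt-Nd6, mt-Cytb and mt-Nd4l it gave -0.67 to 0.0541, -0.69 to 0.0211 and -0.34 to 0.36. With its listed 0 as missing (added after the data were seen), mt-Rnr2 ran from -0.59 to 0.47. The cause was not tested. A filter at a mean of 5 FPKM left out mt-Co2 and mt-Nd4l, which have no value there.

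Replicate numbers 1 to 4 occur in both groups, but same-numbered libraries deviated together in 2 pairs (0.44 and 0.71) and apart in the other 2 (-0.32 and -0.55), and 2 of 8 libraries correlated best with their own number. The numbers were not taken as pairs. With the replicate block 0 genes passed, the median of the protein genes was -0.38, mt-Co2 was at 0.0143 and mt-Nd4l at 0.0553.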
